A study of Caenorhabditis elegans with 9 samples.

Results

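The ceh- genes are the homeobox genes of C. elegans that carry the name ceh- (C. elegans homeobox) and a number. All genes of the count table whose WormBase symbol has this form were taken, apart from 3 symbols that are not analysed here, which gave 61 of 20389 genes. The symbol came from the WormBase identifier in the deposited tables for 60 of them and from the sequence name for 1, ceh-85. Another name, ceh-44, belongs to a locus whose counts the annotation lists under cone-1, so that row was not taken. Of the 61 genes, 17 lie on the X chromosome and 44 on the autosomes.

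Homeobox genes encode transcription factors that bind DNA through a homeodomain, and the family divides into classes that are shared between animals, such as the POU, LIM, sine oculis, CUT, paired-like and NK classes. In C. elegans they are known for fixing the identity of neurons, and some of them act earlier, in the lineages that lay down mesoderm, epidermis and pharynx. Many ceh- genes are active in few cells and for a limited time during embryogenesis.

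The study sequenced the polyadenylated RNA of mixed embryos from 3 strains and made 3 libraries of each. The wild type was N2. The DPY-27::GFP strain carried hsp::dpy-27::gfp, a single-copy insertion on chromosome II that drives GFP-tagged DPY-27, the SMC4 homolog of the dosage compensation condensin, from the hsp-16.41 heat-shock promoter, and the DPY-27(EQ)::GFP strain, or EQ strain, carried the same construct with an E-to-Q change in the ATPase domain (hsp::dpy-27[EQ-TR]::gfp). Asynchronous parents of all 3 strains, wild type included, received 35°C for 30 min and had 2 h of recovery at room temperature before their embryos were isolated by bleaching, and both transgenic strains still had their own dpy-27 gene. The labels do not say whether the replicates came from separate cultures, so that p-values measure only the spread between these libraries. The comparisons ask how the RNA of embryos changed with the tagged protein and with its mutant form.

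Reads on genes numbered 7062182 to 23536013 per library. The level of dpy-27, own gene included, was 465 to 484 CPM (read counts relative to the TMM-scaled library size) in wild type. It was 514 to 901 CPM in the other strains, apart from the library labelled DPY-27::GFP replicate 2. That library, at 451 CPM, lay below every wild-type library, so this value does not bear out its label. The paper reports that heat-induced expression of the tagged protein varied in embryos, and why this library was low was not tested. Values that moved much without this library are given both ways. All wild-type libraries and EQ replicate 3 share a library-name prefix, and for each read on a gene wild type had 1.04 to 1.09 reads outside all features, compared with 0.0346 to 0.0826 in the transgenic libraries. Differences from wild type therefore cannot be told apart from this difference between libraries. As a check of the tissue, 26 of 27 maternal genes and 24 of 24 late embryo genes in the table were expressed, against none of 28 major sperm protein genes, of which 2 were at 0 everywhere. In RNA of whole embryos, fewer cells of a type and less RNA per cell cannot be told apart.

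Most of the family was detected. With at least 10 counts in at least 3 libraries, 48 of 61 members were expressed (78.7%), beside 65.8% of all 20389 genes, and 44 members had at least 10 counts in all 9 libraries. Single libraries held 44 to 54 members with at least 10 counts, most in wild-type replicate 1, which was also the deepest. When every library was thinned to the depth of the smallest, 44 members met the rule. Levels between genes are given as TPM (transcript abundance scaled to gene length and library size). The median of the mean TPM was 17.6 over expressed members and 18.3 over all expressed genes, so the family as a whole did not lie at a particular level. On this scale 4 members lay above 100 TPM, 30 between 10 and 100, 15 between 1 and 10 and 12 at 1 or less.

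**Figure D1:**
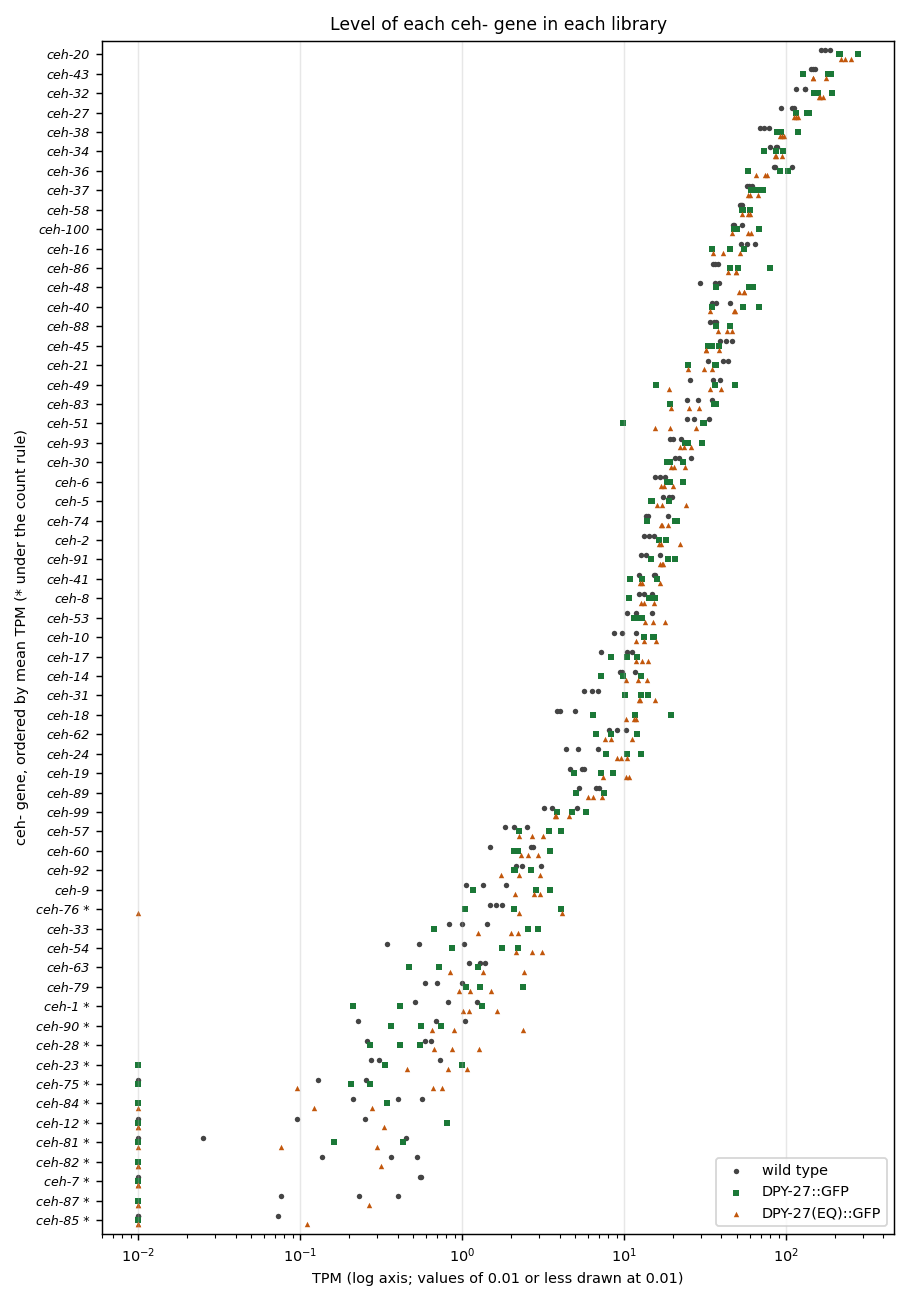
TPM of each of the 61 ceh- genes (horizontal log axis) in each of the 9 libraries, with genes ordered from top to bottom by their mean. Points are single libraries coloured by strain, an asterisk marks the 13 genes under the count rule, and the libraries of a gene lie close together at the top, where ceh-20 spans 164 to 280 TPM, and scatter widely at the bottom, where counts are few.

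The highest member was ceh-20, which encodes the PBC-class partner of Hox proteins, with 215 TPM on average and 164 to 280 TPM over the libraries. It was followed by ceh-43, the distal-less homolog, at 157 TPM, by ceh-32, a sine oculis class gene of head development, at 152.2 TPM, and by ceh-27, an NK-class gene, at 117 TPM. The CUT gene ceh-38 had 89.5 TPM, the sine oculis class gene ceh-34, which specifies pharyngeal neurons, 86.5 TPM, and the OTX genes ceh-36 and ceh-37, which act in sensory neurons, 83.2 and 62.6 TPM. The next members, ceh-58 and ceh-100, had 55.3 and 53.2 TPM. The 5 highest members held 41.96% of the summed TPM of the family. Neighbours in this order often did not differ beyond their spread. The ranges of ceh-43 (128 to 190 TPM) and ceh-32 (115 to 192 TPM) overlapped, as did those of ceh-38, ceh-34 and ceh-36. At the other end, the expressed members with the lowest means were ceh-79 at 1.18 TPM, ceh-63 at 1.20 TPM and ceh-54, a paired-like gene, at 1.64 TPM.

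The 13 members under the rule were ceh-1, ceh-7, ceh-12, ceh-23, ceh-28, ceh-75, ceh-76, ceh-81, ceh-82, ceh-84, ceh-85, ceh-87 and ceh-90. Their highest count in any library was 22, for ceh-23. Both ceh-7 and ceh-12, the HB9 homolog, had at most 3 counts in every library. In contrast, ceh-1 and ceh-28 had 1 to 15 counts and ceh-90 had 1 to 10 counts over the libraries, with none at 0. A count of 0 allows up to 3 counts, or 0.128 to 0.434 CPM depending on the library. Low expression of a member in a library where it had 0 counts was therefore not detectable at this depth. Counts without molecular identifiers are not independent molecules, and such limits cover counting error only.

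The classes differed in how much of them was detected. All 3 PBC genes, all 3 sine oculis class genes, both OTX genes, both POU genes, the LIM gene ceh-14, all 6 paired-like genes, all 3 BAR genes and all 5 CUT and ONECUT genes in the table were expressed. The NK and related genes had 4 of 6 expressed, without ceh-1 and ceh-28, and the other ANTP-like genes had 4 of 5, without ceh-12. Of the 25 members that were placed in none of these classes, 15 were expressed. By chromosome, the expressed members were 7 of 8 on I, 8 of 14 on II, 6 of 7 on III, 4 of 4 on IV, 9 of 11 on V and 14 of 17 on X. A further 33 homeobox genes that do not carry the ceh- name, among them unc-86, lin-11 and ttx-3, had all 33 members expressed.

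Several ceh- genes lie side by side, and the partners were seldom at the same level. On chromosome V, ceh-34 (86.5 TPM) and ceh-33 (1.66 TPM), both of the sine oculis class and on the same strand with 3626 bases between them, differed 52.1-fold, and ceh-34 was the higher in 9 of 9 libraries. On chromosome II, ceh-58 had 20.4 times the TPM of ceh-57 (9 of 9 libraries), and ceh-83 had 28.3 TPM next to ceh-82 at 0.149 TPM. On the X chromosome the partners were closer. The ONECUT gene ceh-21 had 2.46 times the TPM of ceh-41, and the BAR gene ceh-30 had 2.00 times that of ceh-31, each in 9 of 9 libraries, while ceh-36 exceeded ceh-37 1.33-fold in 8 of 9 libraries. How the counting treated reads that fit more than 1 related gene was not measured here.

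**Figure D2:**
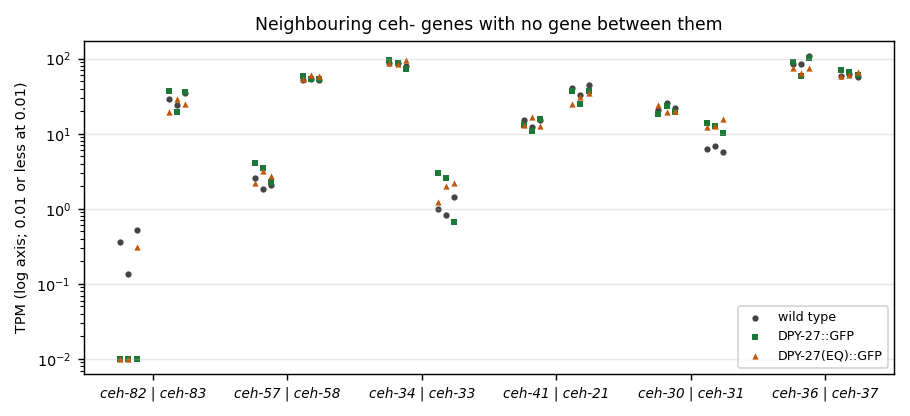
TPM (vertical log axis) of neighbouring ceh- genes that have no other gene of the count table between them, in pairs along the horizontal axis, with each of the 9 libraries as a point coloured by strain and values at or under 0.01 TPM drawn at 0.01. Pairs with both genes under the count rule are left out, the pairs on chromosome II and V are separated by 20.4-fold or more, and the 3 X-linked pairs on the right by 2.46-fold or less.

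The spread from library to library differed between members. Among the 46 members that passed the filter on low counts (edgeR's filterByExpr, which left 12643 genes and dropped the expressed ceh-9 and ceh-63), the CPM of the highest library was 1.13 to 4.63 times that of the lowest, with a median of 1.68. The steadiest were ceh-32, with 216 to 245 CPM, and ceh-58, with 49.5 to 56.03 CPM. The widest spreads were those of ceh-54, ceh-51, ceh-33 and ceh-18, at 4.63, 4.42, 4.16 and 4.08 times. The family summed to 1924 to 2219 CPM in single libraries, and the strains overlapped in this sum.

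In DPY-27::GFP against wild type, 1 member was called, ceh-18, a POU gene on the X chromosome (bases 3843353 to 3857778 on WS220) that is known for its role in the sheath cells of the gonad and is also active in epidermis. Its level was 10.7, 12.8 and 11.4 CPM in wild type and 22.4, 43.4 and 14.3 CPM in DPY-27::GFP. Every DPY-27::GFP library lay above every wild-type library, although the 3 DPY-27::GFP values were far apart, and the highest was the library labelled DPY-27::GFP replicate 2. The log2 fold change was 1.21 (SE 0.311, n = 3 per strain), with an adjusted p of 0.0306 by the quasi-likelihood test of edgeR, adjusted after Benjamini-Hochberg over all genes tested. Without the library labelled DPY-27::GFP replicate 2 it was 0.69, with an adjusted p of 0.0564. It was past the threshold without each of DPY-27::GFP replicate 3, EQ replicate 1 and EQ replicate 3, and missed it without each of the other 6 libraries (adjusted p 0.0530 to 0.137). With the name prefix in the fit it was 1.01 (adjusted p 0.581). Without DPY-27::GFP replicate 3, 5 members were called, ceh-18, ceh-31 and ceh-48 higher and ceh-21 and ceh-41 lower, which is 10.2% of the members tested in that fit beside 23.5% of all genes. Without the library labelled DPY-27::GFP replicate 2 none was called, and the median over the members was 0.081.

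The count of 1 member higher and 0 lower among 46 stood beside 3.42% of all genes higher and 7.45% lower, and is not a result about the family. The median log2 fold change of the members was -0.0076, and that of all genes tested -0.0095. On the TPM scale, tested with limma on log2(TPM + 1), the median of all genes shifted to 0.24 and that of the members to 0.19, so that the order of these medians turned, and the split over all genes turned from 432 higher and 942 lower to 1499 higher and 517 lower. On that scale 3 members were called higher, ceh-18, ceh-31 and ceh-24, or 6.52% of members beside 15.9% of all genes. DESeq2 called ceh-18 and ceh-31, or 3.28% of members beside 10.3% of all genes. At an unadjusted p under 0.05 stood 8 of 46 members, beside 28.4% of all genes, namely ceh-18, ceh-24 and ceh-31, which were higher, and ceh-5, ceh-16, ceh-21, ceh-30 and ceh-92, which were lower. The CPM of the strains did not overlap for 6 members on the higher side and 7 on the lower, among 46, beside 10.9% and 18% of all genes.

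After ceh-18, the most positive log2 fold changes in DPY-27::GFP were those of ceh-54 (0.78, SE 0.469) and ceh-79 (0.76, SE 0.374), which had few counts and did not pass the test. These were 0.34 and 0.30 without the library labelled DPY-27::GFP replicate 2. The most negative were those of ceh-5, the VAX homolog (-0.60, SE 0.211, adjusted p 0.0854 in the edgeR test), of ceh-51, a mesodermal NK-class gene (-0.60, SE 0.351), and of ceh-30 (-0.58, SE 0.187, adjusted p 0.0665). Without the same library ceh-51 was at -0.20, ceh-5 at -0.52 and ceh-30 at -0.66. For ceh-5, wild type had 8.26, 7.79 and 8.14 CPM and DPY-27::GFP 5.65, 4.92 and 5.35 CPM, without overlap between the strains. On WS220 the span of ceh-5 shares 819 bases with ocrl-1 on the opposite strand, exons of the pair share 73 bases in the WBcel235 annotation, and whether the counting used strand is not stated, so that reads from the pair cannot be told apart. Where equal replicate numbers were treated as pairs, ceh-18 was called at a log2 fold change of 1.11 (adjusted p 0.0413), and ceh-21, an X-linked ONECUT gene, was called as well, at -0.57 (adjusted p 0.0488). With no pairs its value was -0.55 (SE 0.191, adjusted p 0.0816), and -0.36 without the library labelled DPY-27::GFP replicate 2.

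In the EQ strain against wild type, which uses the same wild-type libraries, 1 member was called, ceh-31, an X-linked BAR gene (bases 3068637 to 3070386 on WS220). It had 7.02, 7.91 and 6.77 CPM in wild type, 10.8, 10.95 and 9.55 CPM in DPY-27::GFP and 11.4, 10.8 and 13.7 CPM in the EQ strain. All 6 libraries of the transgenic strains lay above all wild-type libraries. The log2 fold change in the EQ strain was 0.73 (SE 0.184), with an adjusted p of 0.0362 in edgeR's test, and in DPY-27::GFP it was 0.53 (SE 0.187, adjusted p 0.0865). Leaving out any 1 wild-type library or any 1 EQ library took the adjusted p of ceh-31 to between 0.0542 and 0.174, while its log2 fold change stayed between 0.62 and 0.83. The highest of the EQ values, 13.7 CPM, was that of EQ replicate 3, the library that shares its name prefix with wild type. With the prefix as a covariate ceh-31 had a log2 fold change of 0.92 (adjusted p 0.146) and no member was called.

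The neighbour of ceh-31 on the other strand, ceh-30, which is known for protecting the male-specific CEM neurons from cell death, had values in the other direction that did not pass the test. It had 21.4, 27.7 and 23.8 CPM in wild type, 13.2, 18.4 and 17.1 CPM in DPY-27::GFP and 20.4, 15.2 and 16.6 CPM in the EQ strain. Every transgenic library lay below every wild-type library. The log2 fold changes were -0.58 (SE 0.187) in DPY-27::GFP and -0.48 (SE 0.184, adjusted p 0.125 in edgeR's test) in the EQ strain, and with an index of embryo stage, the balance of late embryo and maternal RNA, as a covariate the former was -0.77 and was called (adjusted p 0.0273).

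**Figure D3:**
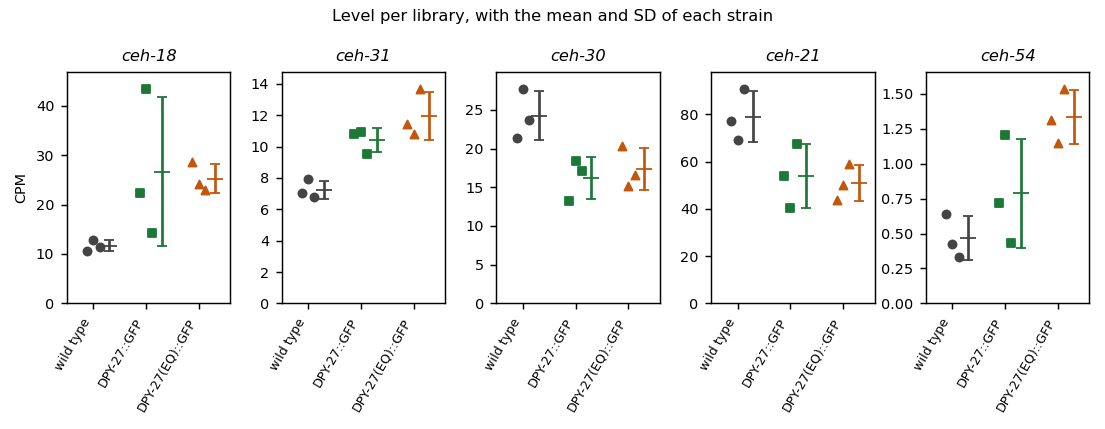
CPM (vertical axis, from 0) of 5 X-linked ceh- genes in each library of the 3 strains, with the mean and SD of each strain beside the points (n = 3). For ceh-31 both transgenic strains lie above wild type and for ceh-30 and ceh-21 below it, and for ceh-18 the DPY-27::GFP libraries spread from 14.3 to 43.4 CPM.

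For ceh-18 the EQ libraries had 28.5, 24.3 and 23.03 CPM, again above every wild-type library and closer together than in DPY-27::GFP. Against wild type this gave a log2 fold change of 1.12 (SE 0.309), with an adjusted p of 0.0508 in edgeR's test, and over the alternatives the adjusted p of ceh-18 ran from 0.000429 to 0.407. The most positive value was that of ceh-54, at 1.51 (SE 0.417, adjusted p 0.0508). This gene had 10 to 32 counts in the EQ strain (1.15 to 1.54 CPM), 3 to 12 in DPY-27::GFP (0.434 to 1.21 CPM) and 7 to 15 in wild type (0.331 to 0.642 CPM), so that the difference rests on few reads. The most negative values were those of ceh-51 (-0.77, SE 0.349), ceh-21 (-0.63, SE 0.190, adjusted p 0.0645) and ceh-49, a CUT gene (-0.50, SE 0.326). For ceh-21, wild type had 77.2, 69.3 and 90.7 CPM, DPY-27::GFP 54.1, 40.5 and 67.5 CPM and the EQ strain 43.7, 50.005 and 58.9 CPM, and both transgenic strains lay wholly below wild type.

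The count of 1 member higher and 0 lower among 46 stood beside 1.82% and 5.08% of all genes, and the median of the members was -0.015 against -0.031 for all genes. DESeq2 called ceh-18 and ceh-31 higher and ceh-21 lower, or 4.92% of members beside 8.06% of all genes. With limma on log2(TPM + 1), ceh-18, ceh-31 and ceh-54 were called higher, or 6.52% of members beside 9.18% of all genes. The medians on that scale were 0.15 for the members and 0.20 for all genes. The split over all genes was 807 higher and 354 lower, against 230 and 642 in edgeR. A fit of these 2 strains alone called 6 members: ceh-18, ceh-31, ceh-48 and ceh-54 higher, and ceh-21 and ceh-51 lower, or 12% of members beside 22.5% of all genes in that fit. Without any 1 of the wild-type or EQ libraries no member was called. The library labelled DPY-27::GFP replicate 2 is of neither strain compared, but enters through the filter, the scaling and the shared spread. Without it 13356 genes were tested and 5 members were called, ceh-18, ceh-31 and ceh-54 higher and ceh-21 and ceh-51 lower. Without DPY-27::GFP replicate 3, 5 were called as well, with ceh-48 higher in place of ceh-51 lower. These are 10.0% and 10.2% of members beside 17.3% and 14.04% of all genes. At an unadjusted p under 0.05 stood 8 of 46 members, beside 26.7% of all genes. Strains did not overlap for 12 members on the higher side and 4 on the lower, beside 19.3% and 22.4% of all genes.

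Between the transgenic strains, the EQ strain against DPY-27::GFP, no member was called and none had an unadjusted p under 0.05 in edgeR's test. Over all genes 0.0% were called in either direction, 116 of 12643 genes (0.918%) had an unadjusted p under 0.05, and DESeq2 and limma called no gene. The median over the members was -0.0051. The most positive log2 fold changes were those of ceh-54 (0.73, SE 0.441), ceh-19, a BAR gene (0.48, SE 0.292), and ceh-53 (0.40, SE 0.241), and the most negative those of ceh-79 (-0.40, SE 0.382), ceh-83 (-0.27, SE 0.238) and ceh-99 (-0.24, SE 0.257). The span of ceh-19 shares 73 bases with mcm-3AP (30.7 TPM) on the opposite strand, and exons of the pair share 49 bases. Again no member or other gene was called without the library labelled DPY-27::GFP replicate 2, but 8 of 50 members, beside 13.5% of all genes, had an unadjusted p under 0.05. The values were then 1.20 for ceh-54, 0.72 for ceh-19, 0.41 for ceh-53, 0.094 for ceh-79, -0.51 for ceh-83 and -0.40 for ceh-99. The CPM of the strains did not overlap for 1 member, ceh-17, the Phox2 homolog, which was higher in the EQ strain (6.18, 6.90 and 6.67 CPM against 5.17, 6.13 and 4.63 CPM), beside 2.58% of all genes, and for 0 on the lower side, beside 1.45%. For ceh-31 the difference between the transgenic strains was 0.20 (SE 0.187) and for ceh-18 -0.093 (SE 0.307), or 0.24 and 0.45 without that library. These errors leave room for differences that the libraries could not show.

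**Figure D4:**
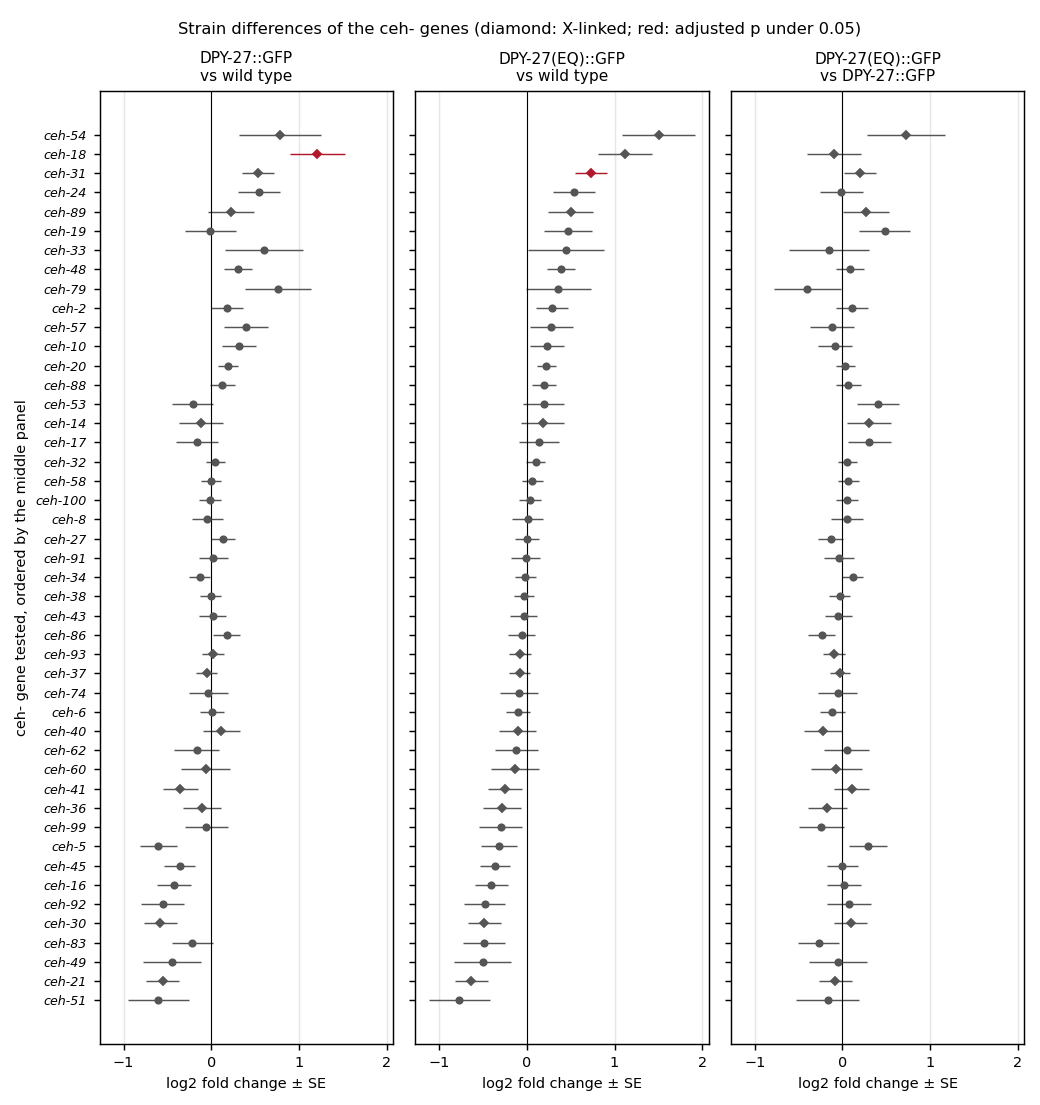
Log2 fold change (horizontal axis) with its SE for the 46 ceh- genes tested, for DPY-27::GFP from wild type (left), the EQ strain, drawn as DPY-27(EQ)::GFP, from wild type (middle) and the EQ strain from DPY-27::GFP (right). Genes are ordered by the middle panel, diamonds are X-linked, red marks the called genes, ceh-18 on the left and ceh-31 in the middle, and both of these panels share the wild-type libraries.

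Class by class, the members other than ceh-18 and ceh-31 did not pass the test in any strain comparison. Among the PBC genes, which bind DNA together with Hox proteins, ceh-20 had 204 to 217 CPM in wild type, 224 to 259 CPM in DPY-27::GFP and 241 to 252 CPM in the EQ strain. Its transgenic libraries all lay above wild type, but the log2 fold changes of 0.19 (SE 0.111) and 0.22 (SE 0.111) did not pass the test (adjusted p 0.282 and 0.219 with edgeR). ceh-60, also a PBC gene, stayed between 1.91 and 2.70 CPM in all libraries.

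In the CUT class, whose members act on genes shared by all neurons, ceh-48 had 50.5, 58.6 and 47.0 CPM in wild type, 70.3, 72.6 and 49.2 CPM in DPY-27::GFP and 67.7, 65.5 and 70.7 CPM in the EQ strain. The EQ libraries lay above all wild-type libraries, and the log2 fold change was 0.39 (SE 0.159, adjusted p 0.147 with edgeR). ceh-38 did not differ in this way, with 205 to 248 CPM and overlap between all strains. In the sine oculis class, ceh-34 had 76.01 to 82.2 CPM in wild type and 67.8 to 73.7 CPM in DPY-27::GFP, without overlap, at a log2 fold change of -0.13 (SE 0.117) that did not pass the test.

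Of the NK-class genes, ceh-27 had 79.2 to 115 CPM and overlapped between the strains. ceh-24, which is active in pharyngeal and vulval muscle, had 5.60, 4.81 and 4.21 CPM in wild type, 6.37, 9.24 and 5.64 CPM in DPY-27::GFP and 6.84, 6.70 and 7.63 CPM in the EQ strain. All transgenic libraries were above all wild-type libraries, with log2 fold changes of 0.55 (SE 0.240) and 0.54 (SE 0.237) and adjusted p of 0.158 and 0.173 (edgeR). The engrailed homolog ceh-16, which acts in the epidermis, had 20.3, 23.1 and 26.9 CPM in wild type against 19.1, 17.7 and 15.5 CPM in DPY-27::GFP, below every wild-type library, while the EQ strain overlapped with 14.1 to 21.2 CPM. Its log2 fold changes were -0.42 (SE 0.190) and -0.40 (SE 0.188), and neither passed the test.

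Most of the remaining regulators overlapped between the strains. The POU gene ceh-6 had 24.6 to 29.5 CPM, the LIM gene ceh-14, which acts in the AFD thermosensory neurons, 5.65 to 12.5 CPM, and ceh-10, the Chx10 homolog that specifies the AIY interneurons, 9.19 to 14.6 CPM. The Rx homolog ceh-8 had 8.97 to 11.3 CPM and the OTX gene ceh-37 had 61.3 to 72.7 CPM. The goosecoid homolog ceh-45 had 24.04, 27.8 and 30.8 CPM in wild type and 17.9, 23.2 and 23.1 CPM in DPY-27::GFP, which lay wholly below it, at a log2 fold change of -0.36 (SE 0.172, adjusted p 0.189 with edgeR).

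The X-linked members were looked at on their own, since DPY-27 belongs to the complex that acts on the X chromosome. Of 13 X-linked members tested, the median log2 fold change from wild type was -0.054 for DPY-27::GFP and -0.081 for the EQ strain, while over all 1939 X-linked genes tested it was 0.071 and 0.094. The 33 autosomal members had medians of -0.0053 and 0.0019. Both called members were X-linked, and X-linked members also held some of the most negative values, those of ceh-21 and ceh-30. No difference between X-linked and autosomal members was tested.

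The libraries differed in their balance of maternal and late embryo RNA. A stage index was formed for each library as the mean log2 CPM of 23 late embryo genes (muscle, cuticle and gut genes among them) minus that of 26 maternal genes, with no ceh- gene in either list. Its values were 2.52, 3.07 and 1.88 for wild type, 3.24, 4.37 and 2.78 for DPY-27::GFP and 3.87, 3.19 and 3.60 for the EQ strain. All EQ libraries were above all wild-type libraries, DPY-27::GFP overlapped both other strains, and the library labelled DPY-27::GFP replicate 2 had the highest index. The slope of each gene on this index was then fitted within strains with edgeR, on the log2 scale per unit of the index. Among the 46 members 8 fell with the index and 1 rose, that is 17.4% and 2.17%, beside 15.1% and 11.3% of all genes. Of the 39 members tested without a gene on the opposite strand, 6 fell and 1 rose (15.4% and 2.56%). The median slope was -0.039 for the members and 0.0055 for all genes.

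The steepest falls were those of ceh-51 (slope -0.85, SE 0.147, adjusted p 0.00193) and ceh-49 (-0.79, SE 0.142, adjusted p 0.00219). ceh-51, at bases 18874103 to 18876140 of chromosome V on WS220, is switched on early in the MS lineage, which gives rise to mesoderm. It had 31.99 CPM in wild-type replicate 3, which had the lowest index, and 7.23 CPM in the library labelled DPY-27::GFP replicate 2, which had the highest. The remaining libraries had 24.3 and 22.95 CPM in wild type, 20.6 and 24.9 CPM in DPY-27::GFP and 12.1, 19.98 and 14.3 CPM in the EQ strain, and within each strain the library with the highest index had the lowest value. The whole span of ceh-51 lies opposite emb-4 on the other strand, with no shared exon bases. ceh-49 had 47.9 CPM and 14.3 CPM in the same extreme libraries, and again the library with the highest index was the lowest of its strain in all 3 strains.

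The other falls were smaller. They were those of ceh-83 (-0.56, SE 0.090, adjusted p 0.00132 in edgeR's test), ceh-40, the X-linked PBC gene (-0.44, SE 0.107), ceh-74 (-0.40, SE 0.127), ceh-36 (-0.39, SE 0.122), ceh-21 (-0.38, SE 0.096) and ceh-43 (-0.27, SE 0.088, adjusted p 0.0374). The whole span of ceh-74 lies opposite cest-2.3 on the other strand, with no shared exon bases. From wild-type replicate 3 to the library labelled DPY-27::GFP replicate 2, ceh-83 ran from 62.4 to 28.5 CPM, ceh-21 from 90.7 to 40.5 CPM and ceh-36 from 68.3 to 36.3 CPM. The rise was that of ceh-18 (0.63, SE 0.148, adjusted p 0.00826), which ran from 11.4 to 43.4 CPM between the same libraries. The most positive slopes after it, those of ceh-54 (0.60, SE 0.368) and ceh-79 (0.42, SE 0.272), did not pass the test, and that of ceh-79 turned to -0.030 without the library labelled DPY-27::GFP replicate 2. By class, the CUT genes had 2 of 5 members falling, the sine oculis, paired-like and BAR classes none in either direction. Over all genes 15.1% fell and 11.3% rose, and at these shares classes this small cannot show a difference between classes.

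**Figure D5:**
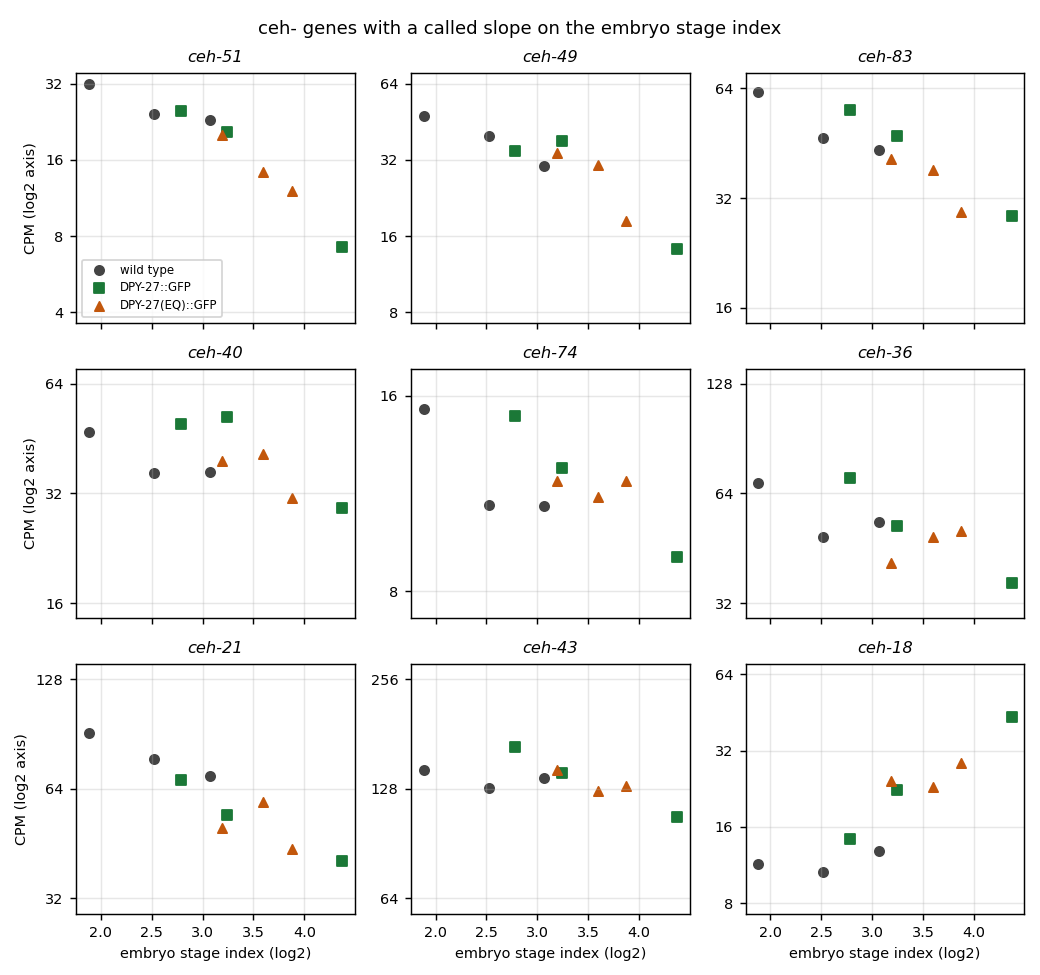
CPM (vertical log2 axis) of the 9 ceh- genes with a called slope against the embryo stage index of each library (horizontal axis, in log2 units), with the 9 libraries as points coloured by strain. The 8 genes that fell and ceh-18, which rose, all have their extreme value in the library labelled DPY-27::GFP replicate 2, at an index of 4.37.

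These stage calls rest on that library. Without the library labelled DPY-27::GFP replicate 2, no member was called in either direction, and over all genes 0.344% rose and 1.0% fell, while the slopes were -0.56 for ceh-51, -0.60 for ceh-49, -0.50 for ceh-83 and 0.28 for ceh-18 (adjusted p 0.0763 to 0.479). Without DPY-27::GFP replicate 3, 4 members were called, ceh-40, ceh-49, ceh-51 and ceh-83, or 8.16% of members beside 11.6% of all genes. With the replicate number as a block 3 were called, ceh-49, ceh-51 and ceh-83, or 6.52% beside 9.52%.

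The strain differences of the same genes changed once the index entered the fit. This fit was not made without the library labelled DPY-27::GFP replicate 2, on which the stage calls rest. With the index as a covariate, the log2 fold change of ceh-18 in DPY-27::GFP was 0.46 (adjusted p 0.271), and in the EQ strain it went from 1.12 to 0.43 (adjusted p 0.407). That of ceh-21 went from -0.55 to -0.20 in DPY-27::GFP and from -0.63 to -0.21 in the EQ strain (adjusted p 0.432 and 0.522). That of ceh-51 turned from -0.60 to 0.10 in DPY-27::GFP and from -0.77 to 0.11 in the EQ strain, and that of ceh-49 in the EQ strain from -0.50 to 0.34. That of ceh-31, whose own slope was not called (adjusted p 0.454), was 0.59 in the EQ strain (adjusted p 0.160). The 6 yolk protein genes are made in the adult intestine. All 6 were expressed, none was at 0 everywhere, and they summed to 3.98 to 15.2 CPM in wild type, 16.3 to 37.8 CPM in DPY-27::GFP and 7.64 to 28.4 CPM in the EQ strain, so that DPY-27::GFP lay above wild type and the EQ strain overlapped it. None of the 5 tested was called in any comparison or on the index, and between the transgenic strains their median log2 fold change was -1.40 where ceh-18 had -0.093. A list of 6 adult cuticle genes, of which 3 were expressed and 0 tested, ran the other way. These summed to 1.94 to 5.26 CPM in wild type, 0.868 to 2.52 CPM in DPY-27::GFP and 0.837 to 1.32 CPM in the EQ strain. In this sum the EQ strain lay below wild type and DPY-27::GFP overlapped it. The part of RNA from adults in the ceh-18 difference was not tested.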

How the data were processed

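The authors deposited a raw count per gene for each of 9 libraries, and their combined table held identical values in 9 of 9 libraries. They also deposited TPM values with gene positions on WS220. The deposited tables that compare strains hold log2 fold changes and p-values of the authors, which were not used, and only their identifier column was read. The submitters' processing notes name CASAVA 1.8, Cufflinks 2.2.0, HTSeq 0.6.1p1 and DESeq2. The labels state stranded libraries, while the strand option of the counting and the treatment of reads with several matches are not given in the sources used here. Columns of per-sample values left unused numbered 0. Rows that name no gene held 12.6% to 58.2% of all reads and stayed out of library sizes and tests. No pair of libraries in a strain agreed within sampling noise.

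Counts were filtered with filterByExpr (12643 genes), scaled with TMM and fitted for all 9 libraries together with the quasi-likelihood functions glmQLFit and glmQLFTest of edgeR 4.0.16 (R 4.3.3; limma 3.58.1), with a gene called at a Benjamini-Hochberg adjusted p under 0.05. Log2 CPM used a prior count of 2. The stage index was fitted with strain in the model. DESeq2 1.42.0, limma on log2(TPM + 1) and log2(TPM + 0.1), other filters and scalings, covariates, a replicate block and each library left out were alternatives. The fits were tested on simulated counts. Opposite-strand overlap used gene spans on WS220, and the WBcel235 annotation for strand and, apart from the spans, for shared exon bases.

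The members and gene lists were chosen with earlier results of these data known. Named for each comparison and for the stage index were all called members and the 3 most positive and 3 most negative values, and for levels the 10 highest and the 3 lowest expressed members. Other members are named class by class or where another fit called them, chosen after their values were seen. Same-numbered libraries of wild type and DPY-27::GFP deviated together (correlations 0.103, 0.423 and 0.449). By a threshold of 0.1 they were treated as pairs, but only in the alternative fit with the replicate block. The main fit had strain only and no pairs. The block was fitted to all 9 libraries, those of the EQ strain included. In wild type and DPY-27::GFP the stage index was highest in replicate 2 and lowest in replicate 3, and its part in these correlations was not tested. This pairing comes from the data only, since the labels give no meaning to a number, and the other 2 comparisons gave correlations of -0.479 to 0.023.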

Additional observations from a re-analysis of the deposited data

How the results depend on the processing

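The number of members expressed lay between 44 and 54 under 4 other rules, and was 41 once the 8 members with a gene on the opposite strand were left out. With each library left out in turn, the members called ran from 0 to 5 in DPY-27::GFP against wild type, from 0 to 5 in the EQ strain against wild type and from 0 to 10 on the stage index, and stayed at 0 between the transgenic strains. The matching medians ran from -0.030 to 0.081, from -0.039 to 0.051, from -0.069 to 0.0038 and from -0.023 to 0.037. In DPY-27::GFP against wild type, where 1 member was called, 0 were called in a fit of the 2 strains alone and with a covariate for the library-name prefix, 2 with the replicate block (1 in each direction), 2 with DESeq2 and 3 with limma on either TPM scale. The median moved to 0.095 with the stage index as a covariate and to 0.19 and 0.22 on log2(TPM + 1) and log2(TPM + 0.1). In the EQ strain against wild type, where 1 was called, 2 were called with no filter, or 3.28% of members beside 5.50% of all genes. With the replicate block 2 were called there as well, or 4.35% of members beside 5.35% of all genes. These were ceh-18 higher (adjusted p 0.0457 in edgeR's test) and ceh-21 lower (0.0411), while ceh-31 was lost (0.73, adjusted p 0.0663). The replicate numbers did not pair these strains. There were 6 calls in the fit of the 2 strains alone, or 12% of members beside 22.5% of all genes. DESeq2 made 3 calls, or 4.92% beside 8.06%, and limma 3 on either TPM scale, or 6.52% beside 9.18% and 9.74%. With the prefix or the stage index as a covariate there were 0. The median moved to 0.11 with the stage index and to 0.15 and 0.17 on the TPM scales. Between the transgenic strains the median was 0.041 with no filter. On the stage index, 3 members were called with the replicate block (6.52% beside 9.52% of all genes). The median slope was -0.16 with the late list alone. The direction turned for ceh-51 (0.10 and 0.11 with the stage index as a covariate in DPY-27::GFP and the EQ strain), ceh-49 (0.34 in the EQ strain with the same covariate) and ceh-79, both without the library labelled DPY-27::GFP replicate 2 (0.094 between the transgenic strains, in a range from -0.72 to 0.094 with libraries left out, and a slope of -0.030, in a range from -0.030 to 0.68). Over all values of named members under the alternatives, 432 kept direction and side of the threshold, 55 lost the call, 21 gained it and 5 turned. The 432 include values that were called in neither fit, and only values called in the main fit could lose the call. The cause of these moves was not tested. Over all genes, calls in DPY-27::GFP against wild type were 1 higher and 38 lower with the prefix as a covariate and 1517 higher and 517 lower on log2(TPM + 0.1), beside 432 and 942. Members under about 30 counts per library, such as ceh-54, are limited by depth.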

Other observations

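Among the 33 homeobox genes without the ceh- name, 1 rose and 1 fell in the EQ strain against wild type, and no call was made in DPY-27::GFP, in edgeR's quasi-likelihood test. Over all genes 1.82% were higher and 5.08% lower in the EQ strain, and 3.42% and 7.45% in DPY-27::GFP. The 33 genes' median log2 fold changes were -0.02 and 0.03 in DPY-27::GFP and the EQ strain, with ranges of -0.58 to 0.76 and -0.92 to 0.96. On the embryo stage index 1 rose and 2 fell, with slopes of -0.55 to 0.27. Of the 26 early zygotic fate regulators, such as end-1, end-3 and tbx-35, 21 were expressed and 19 tested. In this list 6 fell with the stage index and none rose, with a median slope of -0.25, beside 15.1% of all genes falling and 11.3% rising. Without the library labelled DPY-27::GFP replicate 2 none of 21 tested fell or rose, with a median of -0.13, and none of the 33 homeobox genes did. Of the 26 maternal genes 23 fell and of 24 late embryo genes, 23 of them in the index, 11 rose. Without the same library 13 of 27 maternal genes tested fell and 0 of 24 late embryo genes rose. These lists form the index, so that their counts are a description only.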
